A study of Mus musculus with 36 samples.

Results

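The integrated stress response and the unfolded protein response were followed through 10 culture conditions of mouse hepatocytes by way of 10 genes. They were chosen by name for their place in these pathways: Atf4, Ddit3, Chac1, Trib3, Sesn2, Asns, Hspa5, Xbp1, Herpud1 and Dnajb9, 10 of the 52230 genes with a read count. All 10 were among the 12177 genes that passed the filter on low counts. Hepatocytes came from 3 female mice, 14 weeks old, of the P446L line, and are described as deficient in GKRP, the glucokinase regulatory protein. By its label mouse 3 was Gckr-446P/L, and the other two were Gckr-446L. Untreated hepatocytes were compared with hepatocytes that received an adenoviral vector for human GKRP-446P (hP), human GKRP-446L (hL), mouse GKRP-446P (mP) or mouse GKRP-446L (mL), the proline and leucine forms of the common P446L variant. The other 5 conditions had in addition a vector for glucokinase (GK), either alone or with each of the 4 GKRP vectors. All cultures, the untreated ones included, were held for 24 h in 5 mM glucose and then for 4 h in 25 mM glucose, and all had 10 nM insulin and 10 nM dexamethasone. There was no vector without a GKRP or GK insert, so an effect of the virus and an effect of the GKRP it carries cannot be told apart in comparisons with untreated cells.

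Cells that meet amino acid shortage, unfolded protein in the endoplasmic reticulum (ER), haem shortage or viral RNA phosphorylate the translation factor eIF2α, which lowers protein synthesis in general and favours translation of Atf4 mRNA. The ATF4 protein then induces amino acid transporters, asparagine synthetase (Asns), the pseudokinase Trib3, the glutathione-degrading enzyme Chac1, the metabolic regulator Sesn2 and the transcription factor CHOP, the product of Ddit3. Unfolded protein in the ER also activates ATF6 and the nuclease IRE1, which removes a short intron from Xbp1 mRNA. Together these raise ER chaperones such as BiP (Hspa5), the co-chaperone ERdj4 (Dnajb9) and the degradation factor Herpud1. In the liver, an organ with a heavy load of secreted protein, the ER chaperones are abundant without any stress.

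The promoters of the 10 genes were searched for known elements of these pathways. Windows from 250 bases before to 50 after the annotated start of the canonical transcript were searched on both strands for 4 motifs. They were TGATGNAA (the C/EBP-ATF composite element bound by ATF4 and its partners), CCAAT followed after 9 bases by CCACG (the ER stress response element, ERSE), ATTGG followed after 1 base by CCACG (ERSE-II) and TGACGTGG (the unfolded protein response element). The 5 matches are shown because they set side by side promoters of the ATF4 arm and of the ER arm. Sequences are from GRCm39, 5′ to 3′ on the strand of the gene, with the matched bases in capitals. The composite element lies on the opposite strand in all 3 genes that hold it.
Chac1, chr2:119181518-119181549, C/EBP-ATF composite: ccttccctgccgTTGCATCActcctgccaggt
Ddit3, chr10:127126349-127126380, C/EBP-ATF composite: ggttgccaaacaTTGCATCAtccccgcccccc
Herpud1, chr8:95112933-95112964, C/EBP-ATF composite: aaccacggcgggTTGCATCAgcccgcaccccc
Herpud1, chr8:95112993-95113027, ERSE-II: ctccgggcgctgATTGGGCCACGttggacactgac
Hspa5, chr2:34662025-34662067, ERSE: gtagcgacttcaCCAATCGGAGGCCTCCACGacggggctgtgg
The windows of Atf4, Asns, Trib3, Sesn2, Xbp1 and Dnajb9 held none of the 4 motifs. The composite element was in 3 of the 10 windows and in 2.37% of the 12176 windows of tested genes. ERSE was in 0.107% of all windows, ERSE-II in 0.0821% and the unfolded protein response element in 0.846%, the last of them in none of the 10. A match is a description of the letters in the window, and no match says only that these letters are not in it. The genes themselves lie as follows: Atf4 at chr15:80139372-80141745, Ddit3 at chr10:127124268-127132163, Chac1 at chr2:119180757-119184866, Herpud1 at chr8:95113022-95123141, Hspa5 at chr2:34661982-34668880 and Xbp1 at chr11:5470606-5483027 on the forward strand. Trib3 at chr2:152179337-152191958, Sesn2 at chr4:132219335-132237815, Asns at chr6:7671667-7728461 and Dnajb9 at chr12:44252341-44257171 are on the reverse strand.

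Libraries held 3924674 to 10046158 reads (median 5980276). The cultures of 1 mouse in 1 condition were summed, which gave 30 samples and 3 mice in each condition. Levels are in CPM, counts scaled to library size by TMM. Gckr was 9010 to 23100 CPM in the samples with a mouse GKRP vector and 39.2 to 119 CPM in the others, apart from mouse 3 with GK alone (845 CPM), where 1 of 2 cultures held 1460 CPM. The libraries of mouse 1 labelled GK+mP and GK+hL held fewer reads of long genes (median deviation of -0.93 and -0.44 log2 from the mean of all libraries of that mouse). The hepatocyte markers Alb, Apoa1, Ttr, Serpina1a, Tat, Cps1 and Hnf4a summed to 68600 to 132000 CPM. The 10 macrophage markers summed to 217 to 365 CPM, with similar medians in untreated cells (305 CPM) and with the 4 GKRP vectors (283 CPM). The 7 endothelial markers summed to 51.5 to 125 CPM, the 8 stellate cell markers to 24.5 to 158 CPM and the 5 cholangiocyte markers to 15.4 to 262 CPM. The members of the last 2 lists differed widely. In the stellate cell list the medians were 34.8 CPM for Reln, 14.7 for Dcn, 5.35 for Rgs5 and 1.78 for Col3a1. Lrat (0.731 CPM), Col1a2 (0.371), Col1a1 (0.279) and Des (0.167) were lower. In the cholangiocyte list they were 13.9 CPM for Spp1, 12.2 for Sox9, 0.947 for Krt19, and 0.179 for both Krt7 and Epcam. In these bulk samples fewer cells of a type and less RNA per cell cannot be told apart.

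Hspa5 was the most abundant of the 10 and Chac1 the least. In the authors' TPM, which are per transcript length, untreated hepatocytes held 649 ± 333 of Hspa5 (SD, n = 3 mice), 101 ± 19.2 of Atf4, 98.3 ± 17.6 of Herpud1 and 77.1 ± 14 of Xbp1. Asns (29.7 ± 7.88), Ddit3 (17 ± 11.5), Dnajb9 (16.1 ± 4.57), Trib3 (11.5 ± 4.52), Sesn2 (6.14 ± 1.48) and Chac1 (1.43 ± 0.704) followed. The neighbours from Atf4 to Xbp1, and from Ddit3 to Trib3, did not differ beyond their spread. The 30 samples held 26 to 83 reads of Ddit3 and 26 to 225 of Chac1, against at least 100 of every other gene, so that counting error is largest for these.

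The question of the first comparison is what the GKRP vectors did at endogenous GK. The 4 vectors were compared with the same 3 untreated samples. Chac1, which breaks down glutathione, was the gene that moved most. It was 3.76, 2.92 and 2.46 CPM in untreated cells of mice 1, 2 and 3. With hL it was 22.7, 22.9 and 21.1 CPM. It was 17.5, 8.15 and 21.8 CPM with mL. All 6 of these samples lay above all untreated samples, and hL showed the narrowest spread of any condition with a GKRP vector. With a single vector, 6.13% to 6.91% of all genes had all 3 samples above the untreated ones. The share for several vectors together was not counted. The rise of Chac1 was 7.30-fold with hL (log2 fold change 2.87, SE 0.52, edgeR adjusted p = 0.00457) and 5.21-fold with mL (2.38, SE 0.52, adjusted p = 0.0187). With hP Chac1 was 12.6, 6.39 and 15.3 CPM, and with mP 11.8, 4.21 and 9.77 CPM, again above every untreated sample. These differences of 1.9 (SE 0.52) and 1.5 (SE 0.52) log2 had an edgeR adjusted p of 0.11 and 0.292. Once the model held the mouse as a covariate, both passed (adjusted p = 0.00372 and 0.022). Over the mean of the 4 GKRP vectors Chac1 rose 4.48-fold (log2 2.16, SE 0.45, adjusted p = 0.00864), in 3 of 3 mice.

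Ddit3, which encodes the transcription factor CHOP, was higher with hL and over the mean of the vectors. It was 4.85, 6.07 and 5.07 CPM in untreated cells of mice 1 to 3. With hL it was 7.97, 12.6 and 11.3 CPM, a rise of 2.00-fold (log2 1.00, SE 0.20, adjusted p = 0.0105). With hP it was 9.47, 8.09 and 8.93 CPM and with mL 7.20, 9.37 and 11.2 CPM. All 9 of these samples were above the untreated ones. For the 3 samples of a single vector this was so in 6.13% to 6.91% of all genes. Over the mean of the 4 vectors Ddit3 was 1.57-fold higher (log2 0.65, SE 0.16, adjusted p = 0.0307). The hP and mL comparisons alone gave an adjusted p of 0.113 and 0.0515, and 0.0258 and 0.0129 with the mouse as a term. With mP the values of 6.31, 4.21 and 6.51 CPM overlapped those of untreated cells (log2 0.09, 95% interval -0.33 to 0.50). The authors' TPM showed smaller ratios to untreated cells, 1.79 with hL, 1.07 with hP, 1.15 with mL and 0.671 with mP, against 1.99, 1.66, 1.74 and 1.07 in CPM. The effective transcript length by which TPM are divided varied from library to library (mean over genes 1210 to 2630 bases).

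Atf4 itself was raised by a smaller amount. It was 190, 181 and 164 CPM in untreated cells, 267, 227 and 214 CPM with hP and 253, 263 and 225 CPM with hL. With mP it was 243, 220 and 214 CPM, and with mL 237, 241 and 250 CPM. The 12 samples with a GKRP vector all lay above the 3 untreated ones. For the 3 samples of a single vector this was so in 6.13% to 6.91% of all genes. Over the mean of the 4 vectors Atf4 was 1.33-fold higher (log2 0.41, SE 0.10, adjusted p = 0.0352), in 3 of 3 mice. Taken singly the 4 vectors gave differences of 0.34 to 0.47 log2 that did not pass, of which those with hP, hL and mL passed with the mouse as a term (adjusted p = 0.0329, 0.0101 and 0.0129). Measured as mRNA, these values do not show the translation of Atf4, the step at which it is chiefly controlled.

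Sesn2, an inhibitor of the growth kinase complex mTORC1, was 31.5, 35.4 and 27.9 CPM in untreated cells and 38.2, 55.1 and 50.9 CPM with hL. The ranges did not overlap, as for 6.91% of all genes that lay wholly above untreated cells with hL. The rise of Sesn2 was 1.52-fold (log2 0.61, SE 0.15, adjusted p = 0.0459). With the other 3 vectors it was 32.3 to 43.4 CPM, with differences of 0.27 to 0.29 log2 that did not pass. Trib3, a pseudokinase that binds ATF4 and the kinase AKT, was 16.2, 36.5 and 17.1 CPM in untreated cells and 39.6, 56.1 and 45.2 CPM with hL. Mouse 2 stood above mice 1 and 3 before any vector, and the lowest sample with hL lay just above it, while every mouse was higher with hL, by 1.27, 0.61 and 1.39 log2. The difference of 1.01 log2 (SE 0.31) had an adjusted p of 0.172, and of 0.00231 with the mouse as a term. With mL Trib3 was 31.7, 42.0 and 42.3 CPM (log2 0.73, SE 0.31, adjusted p = 0.556, and 0.0201 with the mouse as a term). Asns, which makes asparagine, was 17.5, 40.6 and 29.3 CPM in untreated cells and 24.1, 41.2 and 43.6 CPM with hL, and passed in no comparison (largest difference 0.46 log2 with mL, 95% interval -0.26 to 1.19).

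Of the genes of the ER arm, none was called with any vector in the model without the mouse. Hspa5, the chaperone BiP, was 1480, 1120 and 1080 CPM in untreated cells and 1080, 989 and 911 CPM with hL. It was lower in 3 of 3 mice over the mean of the 4 vectors, by a log2 difference of -0.19 (95% interval -0.48 to 0.10, adjusted p = 0.819). Xbp1 was 173, 146 and 164 CPM in untreated cells and 164, 134 and 136 CPM with hL, with a mean over the 4 vectors of -0.01 log2 (95% interval -0.28 to 0.25). For both genes these intervals, from read counts, leave out a rise of the size seen for Atf4. The authors' TPM gave other ratios to untreated cells for Xbp1, 1.5 (hP), 1.54 (hL), 1.24 (mP) and 0.932 (mL), against 1, 0.901, 1.05 and 1.02 in CPM. For Hspa5 the TPM ratios were 0.648 to 0.767 and the CPM ratios 0.807 to 0.927. Dnajb9 ranged from 34.3 to 75.1 CPM in untreated cells and from 46.4 to 104 CPM with the 4 vectors (mean log2 0.25, 95% interval -0.26 to 0.75). Its TPM ratios to untreated cells were 1.36 to 1.9 and its CPM ratios 1.12 to 1.3. The TPM ratios of Chac1 were 4 to 10.5 and those of Atf4 1.25 to 1.91, above 1 with every vector as in CPM.

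Herpud1, which helps remove unfolded protein from the ER and holds both a composite element and ERSE-II in its promoter, was 130, 85.7 and 79.3 CPM in untreated cells of mice 1 to 3 and 182, 133 and 105 CPM with mP. Mouse 1 was far above the others in every condition, so the groups overlapped, while each mouse was higher by a similar amount (0.48, 0.64 and 0.4 log2). Over the mean of the 4 vectors the difference was 0.41 log2 (SE 0.28, adjusted p = 0.828) without the mouse in the model and 0.42 (SE 0.09, adjusted p = 0.00301) with it.

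**Figure D1:**
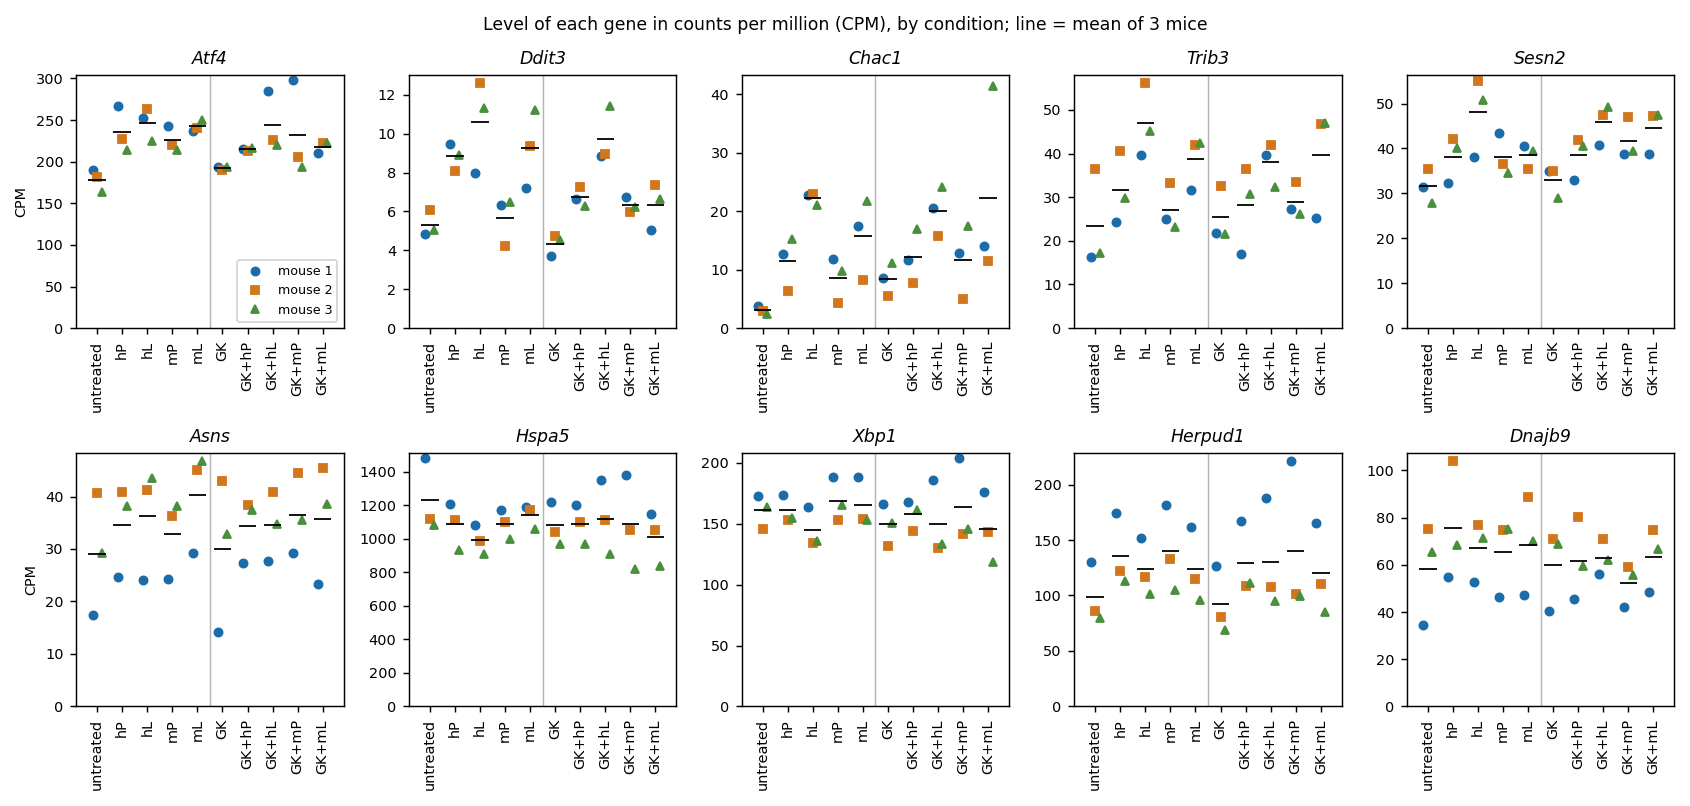
Level of each of the 10 genes in CPM (vertical axis, linear, from 0) in the 10 conditions (horizontal axis), with a point for each mouse and a line at the mean of 3 mice; the grey line separates endogenous GK from the GK vector. Chac1 lay at 2.46 to 3.76 CPM in untreated cells and above that in every sample of the other 9 conditions, while Hspa5 lay between 820 and 1480 CPM and Xbp1 between 119 and 204 CPM, and Asns, Herpud1 and Dnajb9 were split by mouse.

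Counted together, 3 of the 10 genes were called with hL (Chac1, Ddit3 and Sesn2), 1 with mL (Chac1), 0 with hP or mP and 3 over the mean of the 4 vectors (Chac1, Ddit3 and Atf4), every one of them higher. A gene was called at an adjusted p under 0.05 over all 12177 genes, and a fold of 1.3 or more, or of 0.7 or less. Of all tested genes 0.805% were called higher and 0.0739% lower with hL, 0.912% and 0.14% with mL, 0.706% and 0.0739% with hP, 0.994% and 0.123% with mP, and 1.49% and 0.402% over the mean. In edgeR 3 of the 10 had an unadjusted p under 0.05 with hP and 2 with mP, and DESeq2 called 1 and 0. When the mouse was a term the counts rose to 4 (hP), 5 (hL), 2 (mP), 4 (mL) and 5 (the mean), beside 1.95%, 2.51%, 2.41%, 2.49% and 3.1% of all genes. The median log2 difference of the 10 over the mean of the vectors was 0.38, and that of all genes 0. With 2 mice left in each condition most of these calls were lost. Over the mean of the 4 vectors, Chac1 had an edgeR adjusted p of 0.215 without mouse 1, 0.00599 without mouse 2 and 0.266 without mouse 3, with a log2 difference of 1.84 to 2.36. Without mouse 3 none of the 10 was called in any comparison. Without mouse 1 Ddit3 with hL had an adjusted p of 0.0532 and without mouse 2 of 0.196, while for Sesn2 with hL these were 0.0383 and 0.415. Without mouse 2 the call of Atf4 over the mean was lost as well (adjusted p = 0.372). With no filter on low counts, or with an offset for transcript length, Chac1 kept its calls with hL and over the mean, and Ddit3 with hL had an adjusted p of 0.0932 and 0.835.

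**Figure D2:**
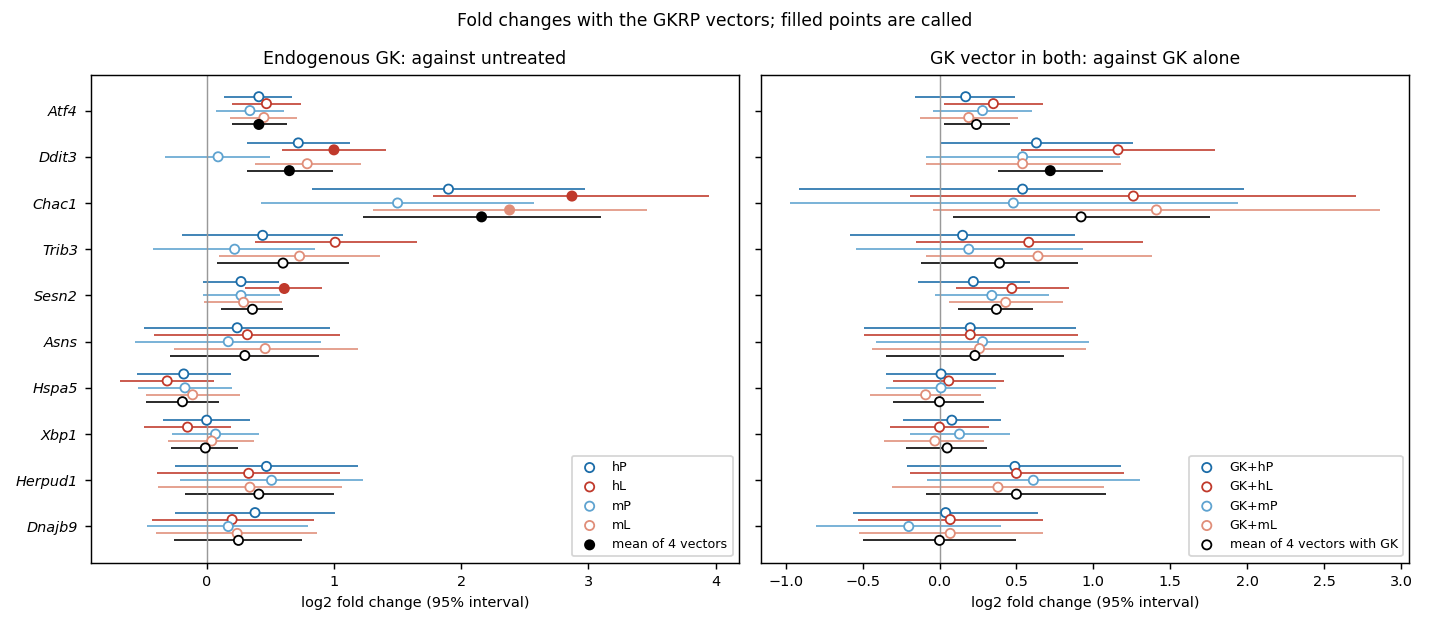
Log2 fold change (horizontal axis, 95% interval as a bar) of each gene with each GKRP vector and with the mean of the 4, against untreated cells on the left and against GK alone on the right; filled points passed the threshold. Chac1 is the farthest from 0 on the left (2.16 over the mean), and Hspa5 (-0.19) and Xbp1 (-0.01) lie at or below 0.

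The second comparison asks what GK overexpression did. GK alone is also an adenoviral vector, and holds no GKRP insert. Chac1 was 8.53, 5.52 and 11.1 CPM with GK alone, above all untreated samples and below all samples with hL (log2 1.46 over untreated, SE 0.51, unadjusted p = 0.0086, adjusted p = 1). Ddit3 went the other way, at 3.72, 4.72 and 4.55 CPM, below the untreated samples in each mouse (log2 -0.30, SE 0.20, adjusted p = 1). Of all genes, 3.01% lay wholly above the untreated samples with GK alone and 3.5% wholly below them. Atf4 at 193, 190 and 193 CPM was 0.10 log2 above untreated cells (95% interval -0.16 to 0.37). None of the 10 genes was called by edgeR or DESeq2, 1 had an unadjusted p under 0.05, and 0.00821% of all genes were called higher. Of the 10 genes, Chac1 had the only interval that left out 0.

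Against the 5 combined conditions of endogenous GK, 4 of which carried a GKRP vector, all 10 genes were lower with GK alone (median -0.24 log2, and -0.01 for all genes). None was called in edgeR, which called 0.0328% of all genes lower. Ddit3 had the only unadjusted p under 0.05 (log2 -0.86, SE 0.25, unadjusted p = 0.00169, adjusted p = 0.138), and DESeq2 called it. Within the 4 GKRP backgrounds, GK changed none of the 10 in the mean (edgeR and DESeq2, 0 calls; 0.0164% of all genes were called higher). Ddit3 was lower with GK in 3 of 3 mice (log2 -0.23, SE 0.10, unadjusted p = 0.032, adjusted p = 0.723). For each GKRP vector taken singly none of the 10 was called by either tool when GK was added, and 1, Ddit3 with mL, had an unadjusted p under 0.05 (log2 -0.55, SE 0.20).

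The third comparison adds the GKRP vectors to GK overexpression, where both arms carry a vector. Ddit3 was the gene that passed. It was 6.63, 7.27 and 6.29 CPM with GK+hP, 8.83, 8.96 and 11.4 CPM with GK+hL, 6.74, 5.97 and 6.25 CPM with GK+mP and 5.06, 7.34 and 6.62 CPM with GK+mL. All 12 samples were above the 3 with GK alone. For the 3 samples of a single vector added to GK this was so in 5.97% to 6.88% of all genes. Over the mean of the 4 vectors Ddit3 was 1.65-fold higher (log2 0.72, SE 0.16, adjusted p = 0.0177), in 3 of 3 mice. It was the only gene of the 10 called, beside 1.11% of all genes called higher and 0.501% lower, and without mouse 1, 2 or 3 its adjusted p was 0.0952, 0.145 and 0.528. Without the culture of GK alone that held Gckr reads it was 0.0242, and without the libraries of mouse 1 labelled GK+mP and GK+hL 0.0238. With no filter on low counts, or with an offset for transcript length, Ddit3 was not called over this mean. In the authors' TPM Ddit3 was 8.7 with GK alone, 15.3 with GK+hP, 24.3 with GK+hL, 9.04 with GK+mP and 15.6 with GK+mL.

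Chac1 was 11.7, 7.76 and 16.9 CPM with GK+hP, 20.5, 15.7 and 24.2 CPM with GK+hL, 12.9, 4.92 and 17.4 CPM with GK+mP and 14.1, 11.5 and 41.4 CPM with GK+mL. Mouse 3 with GK+mL was the highest of the 30 samples. Over the mean the difference from GK alone was 0.92 log2 (SE 0.40, adjusted p = 0.411, and 0.033 with the mouse as a term). The rise with GKRP vectors was smaller in the presence of the GK vector in 3 of 3 mice, by a log2 difference of -1.24 (SE 0.56, unadjusted p = 0.0374, adjusted p = 1). The reference condition differed between the arms, GK alone in the one and untreated cells in the other. No other gene of the 10 had an unadjusted p under 0.05 in this test of the difference, and neither edgeR nor DESeq2 called any. Herpud1 was 127, 80.4 and 68.8 CPM with GK alone and 167, 109 and 111 CPM with GK+hP, and was higher in 3 of 3 mice over the mean (log2 0.50, SE 0.28, adjusted p = 0.653, and 0.000664 with the mouse as a term). With GK+mP Herpud1 was 221, 101 and 99.2 CPM in mice 1 to 3, and this library of mouse 1 held fewer reads of long genes. Given the mouse term, 3 of the 10 were called over the mean (Ddit3, Chac1 and Herpud1), beside 2.92% of all genes, and 1 with GK+mP (Herpud1, adjusted p = 0.025), beside 2.25%. Without that term none was called for any single vector added to GK, in edgeR or DESeq2, and 1 with GK+hP, 3 with GK+hL, 0 with GK+mP and 1 with GK+mL had an unadjusted p under 0.05. Of all genes 0.00821% were called higher with GK+hP, 0% with GK+hL, 0.0657% with GK+mP and 0.00821% with GK+mL. Hspa5 and Xbp1 differed from GK alone by 0.00 log2 (95% interval -0.30 to 0.29) and 0.05 log2 (-0.22 to 0.31) over the mean.

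The fourth comparison sets the leucine form of GKRP against the proline form, in the same species, at the same GK level and in the same mouse. Chac1 was higher with 446L in all 12 of these pairs. Averaged over species and GK level it was 1.83-fold higher (log2 0.88, SE 0.25, unadjusted p = 0.00166), by 0.58, 1.22 and 0.84 log2 in mice 1 to 3. Trib3 was higher in 11 of 12 pairs, the exception being mouse 1 with GK+mL, and 1.41-fold higher on average (log2 0.49, SE 0.15, unadjusted p = 0.004). Ddit3 was higher in 10 of 12 pairs (log2 0.38, SE 0.10, unadjusted p = 0.00107), at -0.01, 0.58 and 0.50 log2 in the 3 mice. Sesn2 followed with 0.17 log2 (SE 0.07, unadjusted p = 0.0268), higher in 9 of 12 pairs. Atf4 and Asns were also higher in 9 pairs, Dnajb9 in 8 and Hspa5 in 6. The 12 pairs come from 3 mice, and such pairs were not counted for all genes. They include the libraries of mouse 1 labelled GK+mP and GK+hL, which held fewer reads of long genes. Herpud1 was lower with 446L in 10 of 12 pairs (log2 -0.13, 95% interval -0.49 to 0.23), and Xbp1 was lower in 8.

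Chac1, Trib3, Ddit3 and Sesn2 did not pass after adjustment over all genes in edgeR (adjusted p = 0.74, 0.974, 0.707 and 1). DESeq2 called none of them, and edgeR called 0.00821% of all genes higher. When the mouse was a term Chac1 (log2 0.91, SE 0.16, adjusted p = 0.00387) and Trib3 (log2 0.5, SE 0.1, adjusted p = 0.0115) were called, beside 0.485% of all genes. Taken singly, the 4 pairs of vectors gave 0 calls in edgeR with and without the mouse as a term and 0 in DESeq2, and 1, 1, 1 and 0 of the 10 genes had an unadjusted p under 0.05. They were Sesn2 for hL against hP, Ddit3 for mL against mP and Ddit3 for GK+hL against GK+hP. Atf4 (log2 0.06, 95% interval -0.07 to 0.20), Hspa5 (-0.03, -0.21 to 0.16) and Xbp1 (-0.11, -0.28 to 0.06) showed no difference of the size of that of Chac1. The amounts of GKRP made by the vectors are not read by these counts for the human forms, and Gckr reads with mL were below those with mP in 3 of 3 mice at either GK level.

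**Figure D3:**
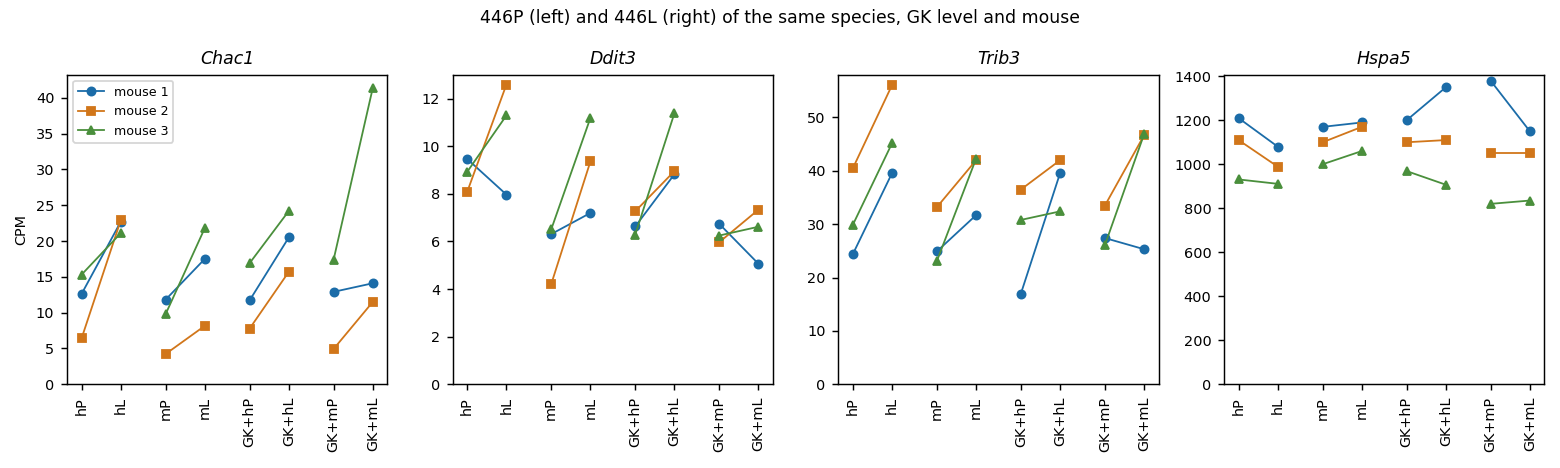
CPM (vertical axis, linear, from 0) with the 446P vector (left of each pair) and the 446L vector (right) of the same species and GK level, with a line for each mouse. Chac1 goes up in all 12 lines and Trib3 in 11, while Hspa5 has no common slope.

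Between species the human vectors gave the higher Ddit3. The mouse vectors were lower by 0.39 log2 (SE 0.10, unadjusted p = 0.000879, adjusted p = 1) in 3 of 3 mice. It was the only gene of the 10 with an unadjusted p under 0.05, none was called by edgeR or DESeq2, and 0% of all genes were called lower. Chac1 differed by -0.20 log2 between species (95% interval -0.70 to 0.31).

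The levels of several of the genes depended on the mouse more than on the condition. Mouse 1 had the lowest mean of Asns (24.2 CPM, against 41.6 in mouse 2 and 37.5 in mouse 3) and of Dnajb9 (46.8, 77.5 and 66.3 CPM) and the highest of Herpud1 (167, 108 and 95.3 CPM). After the condition means were taken out, the mouse accounted for 92.3% of the variance of log2 CPM of Herpud1 and 86.6% for Dnajb9. The share was 84% for Asns, 80.6% for Hspa5, 76% for Xbp1, 62.8% for Trib3 and 61.9% for Chac1. It was 35.3% for Atf4, 24.4% for Sesn2 and 19.4% for Ddit3. Chac1 had means of 13.6 CPM in mouse 1, 8.99 CPM in mouse 2 and 18.1 CPM in mouse 3. The highest of these was 2.02 times the lowest, the largest such ratio among the genes followed. Conditions accounted for 81.1% of the whole variance of Ddit3, 69% of that of Chac1, 61.1% of that of Sesn2 and 59.1% of that of Atf4, and for 14.3% to 22.5% of that of Asns, Hspa5, Xbp1, Herpud1 and Dnajb9. The marker lists also differed by mouse. In libraries of mouse 1 the cholangiocyte list summed to 141 to 262 CPM, chiefly Spp1, against 15.4 to 34 CPM in the other mice. The stellate cell list summed to 24.5 to 46.4 CPM in mouse 1, 109 to 158 CPM in mouse 2 and 71.1 to 105 CPM in mouse 3, and the hepatocyte list to 68600 to 93300, 112000 to 132000 and 89100 to 107000 CPM. Their part in the differences between mice was not tested.

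Most of the other genes that ATF4 is known to induce had positive differences with the vectors. Of 28 such genes 26 were tested, and over the mean of the 4 vectors at endogenous GK 22 had a positive difference, with a median of 0.26 log2 (0 for all genes). Called were Mthfd2, a mitochondrial folate enzyme (log2 0.91, SE 0.21, adjusted p = 0.019), Slc7a5, the leucine transporter LAT1 (0.61, SE 0.15, adjusted p = 0.0298), and Slc38a2, a transporter of small neutral amino acids (0.53, SE 0.14, adjusted p = 0.0473), each higher in 3 of 3 mice. Of all genes 1.49% were called higher over this mean. Slc7a5 was 20.4, 22.9 and 16.1 CPM in untreated cells and 36.6, 35 and 30.6 CPM with hL. In the model with the mouse 8 of the 26 were called, all higher, beside 3.1% of all genes called higher. This added Slc7a11, Slc7a1, Slc6a9, Phgdh and Aldh18a1. Added to GK, the vectors gave 21 positive differences of 26. Slc7a5 was called again (log2 0.61, SE 0.15, adjusted p = 0.0321), beside 1.11% of all genes called higher. Ddit4, an inhibitor of mTORC1, was the gene of this list with the smallest p between 446L and 446P (log2 0.75, SE 0.16, unadjusted p = 0.000152, adjusted p = 0.37, and 1.55e-05 with the mouse as a term). It was 24.6, 56.8 and 30.5 CPM with hL and 14.7, 27.4 and 20.5 CPM with hP in mice 1 to 3, and higher with 446L in 3 of 3 mice. Of the 26 genes, 23 had a positive difference between 446L and 446P.

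Of 13 genes of tRNA charging and export (aminoacyl-tRNA synthetases and Xpot), many of them known ATF4 targets, 8 had a positive difference over the mean of the 4 vectors (median 0.03 log2). None was called with or without the mouse as a term, and Yars1 (0.23, SE 0.10, unadjusted p = 0.0397) and Cars1 (0.25, SE 0.15) came nearest. Nor was any gene called among the 15 sensors and regulators (median -0.03), the 18 ER folding factors (median -0.07), the 13 tested ER degradation factors (median -0.08), the 12 ER transport genes (median -0.04) or the 6 genes of the mitochondrial unfolded protein response (median 0.07). Of the 18 ER folding factors, P4hb, a disulfide isomerase (log2 -0.13, SE 0.08), and Erp44 (-0.14, SE 0.09) had the smallest p. Among the sensors, Ern1, which encodes IRE1α, was lower with the GKRP vectors added to GK (log2 -0.57, SE 0.21, adjusted p = 0.264, and 0.00395 with the mouse as a term), in 3 of 3 mice. For GK+mP against GK the model with the mouse also called Manf (log2 0.56, SE 0.15, adjusted p = 0.0288) and Creld2 (0.48, SE 0.14, adjusted p = 0.0349), both of the ER folding list, higher, and Ppp1r15a, which directs dephosphorylation of eIF2α, lower (-0.56, SE 0.16, adjusted p = 0.0367). In the model without the mouse these 3 had an adjusted p of 0.215, 0.68 and 0.497. With the mouse as a term, 2.25% of all genes were called higher and 2.37% lower for GK+mP against GK. For the mean of the vectors added to GK, 1.42% were called lower. The GK+mP samples include the library of mouse 1 that held fewer reads of long genes.

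Of the cytosolic heat shock genes, all 7 had a positive difference over the mean at endogenous GK (median 0.55 log2), and all 7 when the vectors were added to GK (median 0.70). Hspa1a, an inducible HSP70, was called at endogenous GK (log2 2.33, SE 0.56, adjusted p = 0.0236), beside 1.49% of all genes called higher. It rose from 0.594, 0.900 and 0.894 CPM in untreated cells to 10.1, 3.11 and 4.09 CPM with hL. The untreated values are near the floor, so the size of the rise is uncertain. Hspa1a and Hspa1b are near-identical copies whose reads can be split between them, so their separate values are uncertain. With the mouse as a term 5 of the 7 were called at endogenous GK, beside 3.1% of all genes called higher. When the vectors were added to GK, 5 were called, beside 2.92%. Among them were Hsph1 (log2 0.53, SE 0.07, adjusted p = 3.15e-05) and Hspa8 (log2 0.52, SE 0.07, adjusted p = 1.6e-05) at endogenous GK.

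**Figure D4:**
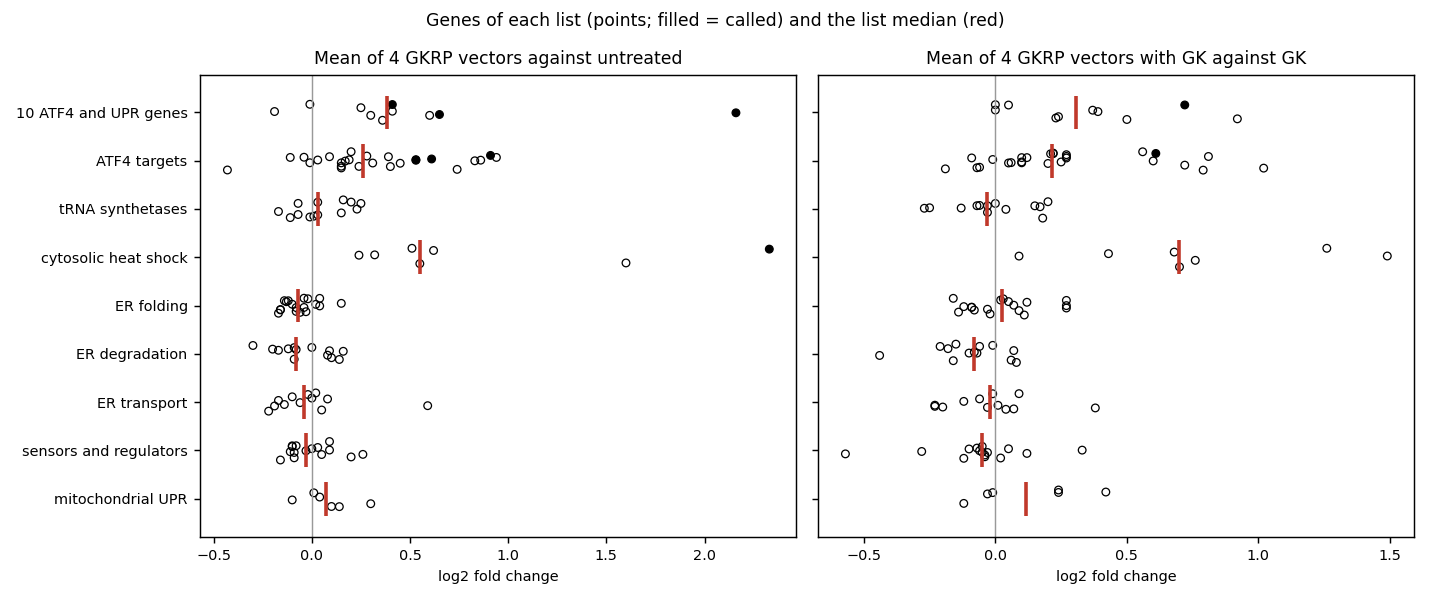
Log2 fold change (horizontal axis) of the tested genes of each list, as a point for each gene (filled where called), and the list median (red line), for the 4 GKRP vectors averaged, over untreated cells (left) and over GK alone (right). The 10 genes (median 0.38), the ATF4 targets (0.26) and the cytosolic heat shock genes (0.55) lie to the right of 0 on the left panel, and the ER lists lie at -0.08 to -0.04.

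The genes whose log2 CPM ran most like Atf4 over the 30 samples were Apex1, Gins2 and Lgmn (Pearson r = 0.82 each). For Asns they were Cth (r = 0.96), Lbp (0.92) and Paox (0.91), for Hspa5 Selenos (0.88), Ftsj3 (0.88) and Pals2 (0.87), and for Xbp1 Crlf3 (0.87), Akr1c13 (0.86) and Igsf5 (0.86). The samples share 3 mice, and with each mouse centred on its own mean the r fell to 0.56 to 0.69 for the 3 genes of Xbp1 and stayed at 0.80 to 0.84 for those of Atf4. Within mice Atf4 ran with Ddit3 (r = 0.75), Trib3 (0.74), Herpud1 (0.72) and Chac1 (0.71), and not with Hspa5 (-0.06) or Xbp1 (0.10).

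The splicing of Xbp1 by IRE1 could be looked at, because the annotation holds a transcript without the 26-base intron. The intron lies at chr11:5474278-5474303 (GRCm39, forward strand), inside exon 4 of the longer transcript, and is shown in capitals with 30 bases on either side because its removal is the output of IRE1.
Xbp1 intron: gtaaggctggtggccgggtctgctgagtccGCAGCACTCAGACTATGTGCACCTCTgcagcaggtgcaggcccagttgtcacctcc
The intronless transcript (1116 bases) lacks these bases, and the longer transcript (2129 bases) holds them. The share of Xbp1 reads given to the intronless transcript was 13.6% ± 7.0 in untreated cells, 18.5% ± 9.4 for hP, 12.1% ± 5.6 for hL, 11.2% ± 3.3 for mP and 0.5% ± 0.9 for mL (SD, n = 3 mice). With the GK vector it was 10.0% ± 7.4 alone, 6.6% ± 1.8 with GK+hP, 11.1% ± 7.5 with GK+hL, 8.2% ± 12.7 with GK+mP and 19.6% ± 14.8 with GK+mL. Duplicate cultures of a mouse were 5.2 to 20.3 percentage points apart, as in untreated cells of mouse 1, where 1 culture had 0% and the other 20.3%. With mL it was 1.6%, 0% and 0% in mice 1 to 3, while the 6 untreated cultures ran from 0% to 25.9%. Differences in this share between conditions were not tested. The intronless transcript also differs from the longer one in its ends, so that the share does not rest on reads across the splice site alone.

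**Figure D5:**
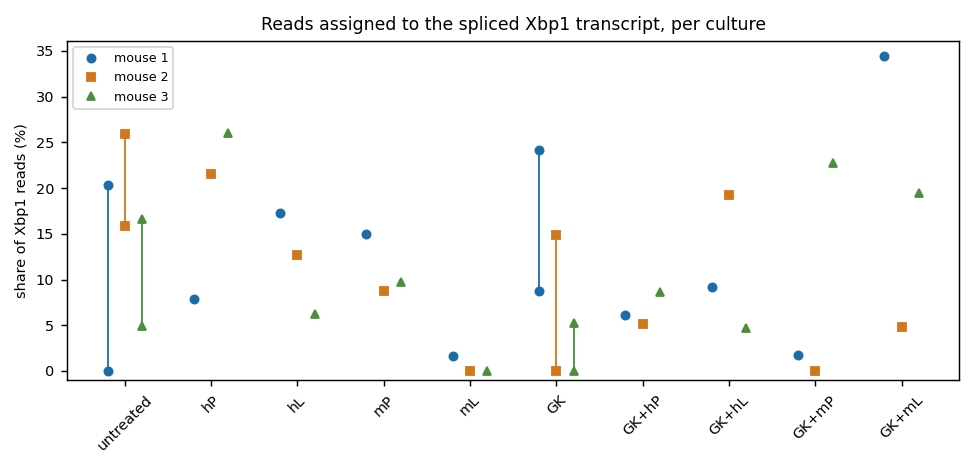
Share of Xbp1 reads (vertical axis, percent) that Salmon gave to the transcript without the intron in each of 36 cultures by condition (horizontal axis); lines join the 2 cultures of the same mouse. The shares run from 0% to 34.4%, and the joined cultures are up to 20.3 percentage points apart.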

How the data were processed

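RNA from 36 hepatocyte cultures of 3 mice was sequenced. The authors ran Salmon 1.4.0 on untrimmed reads with the Gencode M26 transcriptome (GRCm39). The files they deposited hold expected counts (estimated reads, not normalized), TPM (scaled within the library per effective length) and the effective length of 139225 transcripts. Transcripts were paired with genes of a later Gencode release (98.8% matched; the rest held 0.392% to 0.639% of reads), and expected counts were summed per gene and rounded. A second gene ID named Ddit3, which overlaps the first, was left out. Duplicate cultures of a mouse were not repeats of 1 library (chi-square over degrees of freedom 4.38 to 30.2) and were summed.

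Tests used edgeR 4.0.16 in R 4.3.3: filterByExpr by condition, TMM, glmQLFit and glmQLFTest, with Benjamini-Hochberg adjustment over 12177 genes. GK against the 5 combined conditions, and each GKRP vector with GK against GK, used 6 groups; the others used 10 conditions. SE is the log2 fold change divided by the square root of F. Log2 CPM had a prior count of 2. DESeq2 1.42.0, RLE scaling, other filters, single cultures, a length offset, the mouse as a term and each mouse left out were alternatives. The mouse pairs samples because they come from the same animal: deviations from condition means correlated at 0.223 on average within mice. The value between mice, -0.11, largely follows from centring each condition on the mean of its 3 mice. The study's methods name no mouse term. The p-values rest on 3 mice. The tests were checked on simulated counts that held no differences between mice, so the check does not cover the effect of the mouse. A check of the vectors is not reported here.

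The 10 genes, the other lists and the tests were chosen with earlier results of these data known. Named from each list were at most 4 called genes per comparison, by size, or where none was called 2 by smallest p; genes called with the mouse as a term alone were named after their values were seen. Likeness was Pearson's r over 30 samples, 3 genes each.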

Additional observations from a re-analysis of the deposited data

Results flagged for a closer look

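Among the 6 cultures of untreated cells, the highest Ddit3 value, 7.62 CPM, stood apart from the other 5 (4.05 to 5.33 CPM) by Dixon's test at the 95% level. Among the 6 cultures with GK alone, the lowest Ddit3 value, 2.72 CPM, stood apart from the others (4.23 to 4.79 CPM). For independent values chance gives such a result in about 1 in 20 groups, and 20 groups were looked at. The 6 cultures include duplicates of a mouse, so their values are not independent. The flagged cultures held 49 reads of Ddit3 (untreated) and 12 (GK alone), where counting error is large.

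Atf4 was higher with GK than in untreated cells in each of 3 mice (0.02, 0.07 and 0.23 log2) and lower with GK+mL than with mL in each (-0.16, -0.12 and -0.18), a difference of 0.26 log2 that was not tested. Hspa5 was lower with hL than with hP at endogenous GK in each mouse (-0.17, -0.17 and -0.03 log2) and higher with mL than with mP (0.03, 0.09 and 0.08), a difference of -0.19 log2 that was not tested. These came from 15 pairs of effects looked at for each of the 10 genes.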

How the results depend on the processing

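No called gene reversed its direction under any alternative. Among differences that were not called, 43 changed sign by at least 1 SE under the transcript length offset. Under that offset 191 stayed the same and 6 lost their call. By the authors' TPM, 36 ratios to untreated cells moved beyond their spread and 54 did not. With the mouse as a term (the replicate block, in which samples are paired by animal) the number of the 10 genes called went to 4 with hP, 5 with hL, 2 with mP, 4 with mL, 5 over the mean of the 4 vectors, 1 for GK+mP against GK, 3 for the mean with GK and 2 for 446L against 446P, and it changed no other count. DESeq2 called 1 gene for GK against the 5 combined conditions, 1 with hP and 3 with mL. Single cultures as samples gave 1 for GK against the 5 combined conditions, 3 with hP, 3 with mL and 2 for the mean with GK. Without a filter 1 was called with hL, 1 over the mean and 0 for the mean with GK, where Ddit3, Sesn2 and Atf4 were lost. With at least 10 reads in every sample 2 were called with mL. A transcript length offset left 1 with hL, 0 with mL, 1 over the mean and 0 for the mean with GK; Chac1 was the gene that stayed. RLE scaling kept all counts within 1.5 times, but Sesn2 with hL missed the threshold (adjusted p = 0.0583). Leaving out a mouse gave 0 to 1 with hP, 0 to 2 with hL, 0 to 1 with mL, 0 to 1 over the mean and 0 to 1 for the mean with GK. After the data were seen, 2 alternatives were added. Leaving out the GK culture with Gckr reads changed no count, and leaving out the libraries of mouse 1 labelled GK+hL and GK+mP gave 1 with hP and 2 with mL. The causes were not tested. By the authors' TPM the share of the intronless Xbp1 transcript was 28.0% in untreated cells, 37.3% with hP, 21.6% with hL, 23.0% with mP, 17.6% with GK, 14.4% with GK+hP and 20.1% with GK+hL. Depth limits Ddit3 and Chac1 most, with as few as 26 reads in a sample.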
